A study of Mus musculus with 7 samples.

Results

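Amino acid and peptide carriers were examined in sorted Paneth cells, the secretory cells of the small-intestinal crypt base, from mice on 2 diets. The carriers were the genes of the solute carrier families Slc1, Slc3, Slc6, Slc7, Slc15, Slc36, Slc38 and Slc43. They were taken by symbol from transcript clusters (the gene-level probe sets of the array) that carry 1 symbol, with the brightest cluster kept per gene. This gave 67 genes of 19938 with such a cluster. Of these, 50 passed a filter on low values, a mean over all arrays of at least 6.79 on the log2 scale, and were tested among 13409 genes. The opposite-strand genes Slc6a19os and Slc7a6os share the letters of the rule but encode no carrier of these families and were left out. The mice were 4 months old. One group had food ad libitum (3 arrays), and the other was calorie restricted, at 60% of the ad libitum calories (4 arrays). The diets lasted 4 to 7 weeks. Each array held total RNA of flow-sorted cells from what the labels call a biological replicate. The sources used here do not give strain, sex or pooling of animals, so p-values measure the spread between these samples. Values by array are listed in the order of replicates 1 to 4 for calorie restriction and 1 to 3 for ad libitum feeding. The question was how the diet changes these cells.

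Dietary protein enters the gut epithelium as free amino acids and as short peptides. At the apical (luminal) membrane, sodium-coupled carriers such as Slc6a19 take up neutral amino acids, and the proton-coupled carrier Slc15a1 takes up di- and tripeptides. The Slc3a1 protein is a heavy chain without transport activity of its own. It brings light chains such as Slc7a9 to the apical surface, where the pair takes up cystine and cationic amino acids. Slc3a2, also known as CD98, does the same for Slc7a5, Slc7a6, Slc7a7 and Slc7a8 at the basolateral membrane, which faces the blood. Several carriers that feed growth, among them Slc7a5 and Slc7a11, are known targets of ATF4, the transcription factor of the amino acid response.

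The sequences before the start sites of Slc6a19, Slc3a1 and Slc7a11 are shown because these genes had the largest diet difference among the members, a called difference together with a motif match, and the widest range between arrays, respectively. They are the 250 bases upstream of the RefSeq start on build GRCm38.p6, 5′ to 3′ on the gene's strand. Slc6a19 lies at chr13:73692637-73692886 on the minus strand, Slc3a1 at chr17:85028097-85028346 on the plus strand, and Slc7a11 at chr3:50443614-50443863 on the minus strand. Capitals mark the motif matches named after the sequences.
Slc6a19: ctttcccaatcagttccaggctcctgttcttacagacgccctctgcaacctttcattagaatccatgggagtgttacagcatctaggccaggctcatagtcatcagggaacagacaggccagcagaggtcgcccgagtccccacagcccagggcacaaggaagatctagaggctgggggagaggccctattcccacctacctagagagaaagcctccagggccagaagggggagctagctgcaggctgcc
Slc3a1: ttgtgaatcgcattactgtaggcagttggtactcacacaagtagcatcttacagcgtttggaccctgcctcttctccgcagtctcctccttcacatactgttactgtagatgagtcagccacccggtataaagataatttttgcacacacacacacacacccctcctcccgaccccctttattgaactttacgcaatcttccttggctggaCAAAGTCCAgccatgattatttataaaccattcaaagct
Slc7a11: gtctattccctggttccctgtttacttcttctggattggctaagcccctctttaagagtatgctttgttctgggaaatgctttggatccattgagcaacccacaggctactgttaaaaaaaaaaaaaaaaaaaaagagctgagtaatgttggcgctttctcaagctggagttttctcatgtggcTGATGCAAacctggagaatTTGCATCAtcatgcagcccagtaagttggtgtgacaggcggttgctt

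Motifs were searched on both strands in windows of 250 bases before to 50 after each start, for the 40 of 50 tested members with a RefSeq promoter entry. The ATF4 element TGATGNAA was found in 4 of these 40 genes and in 4.51% of 27025 genes in the table. Slc7a11 held it in both directions, at -66 to -59 and at -47 to -40, counting the start base as 0. The other matches were in Slc1a4, Slc7a7 and Slc15a5. The HNF4 motif CAAAGTCCA was found only in Slc3a1 among the members, at -39 to -31, and in 0.555% of all genes. The full glucocorticoid element (AGAACA and TGTTCT, 3 bases apart) and the HNF1 motif (GTTAAT and ATTAAC, 1 base apart) had 0 matches among members and 3 genes each in the table. A looser glucocorticoid form (GNACA and TGTNC, 3 bases apart), which every full element also matches, was found in Slc38a11 and in 0.537% of all genes. A match is a match of letters, and no binding was measured here.

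Of the 50 tested members, 3 were higher under calorie restriction, the apical carrier gene Slc6a19, the apical heavy chain gene Slc3a1 and the light chain gene Slc7a15 (limma, Benjamini-Hochberg adjusted p below 0.05 over all genes). Over all 13409 genes 0.656% were called higher. No member was called lower, against 0.00746% of all genes, and 1 member had an unadjusted p below 0.05 in that direction (2.41% of all genes). In the higher direction 18 members had an unadjusted p below 0.05, against 6.89% of all genes. All 4 calorie-restricted arrays lay above all 3 ad libitum arrays for 17 members (7.14% of all genes), and below them for 1 (3.03%). The median difference, calorie restricted minus ad libitum, was 0.13 log2 units over the 50 members and 0.01 over all genes tested. It was 0.22 against 0.10 after median centring, 0.25 with the 60th percentile filter and 0.023 with no filter. A difference above 0 was seen in 37 of 50 members (54.2% of all genes). Slc6a20b passed the filter only through its calorie-restricted arrays and Slc15a2 only through its ad libitum arrays, and over the 48 others 17 had an unadjusted p below 0.05 in the higher direction and 16 had separate groups in that direction. The members were chosen with earlier results of these data known, so these shares are descriptions.

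Markers of enterocytes, the absorptive cells of the gut epithelium, differed between the diets in the same arrays. Of 26 enterocyte markers, none of them a member, 11 were called higher (0.656% of all genes). The mean of the 26 ran from 11.65 to 11.86 in the calorie-restricted arrays and from 10.38 to 10.98 in the ad libitum arrays. None of the 26 was below the filter level. Their part in the carrier differences was not tested. In such bulk samples, fewer cells of a type and less RNA per cell cannot be told apart. Of 10 Paneth markers 0 were called (limma, 0.656% of all genes were called higher). At an unadjusted p below 0.05 there were also 0 (6.89% of all genes higher and 2.41% lower). The means of the Paneth markers overlapped, at 13.12 to 13.48 and 13.33 to 13.54. The lysozyme gene Lyz1 was at 14.31 ± 0.04 (SD, n = 4) and 14.31 ± 0.02 (n = 3), close to the highest value of any cluster (14.67), where a difference may not be measurable.

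**Figure D1:**
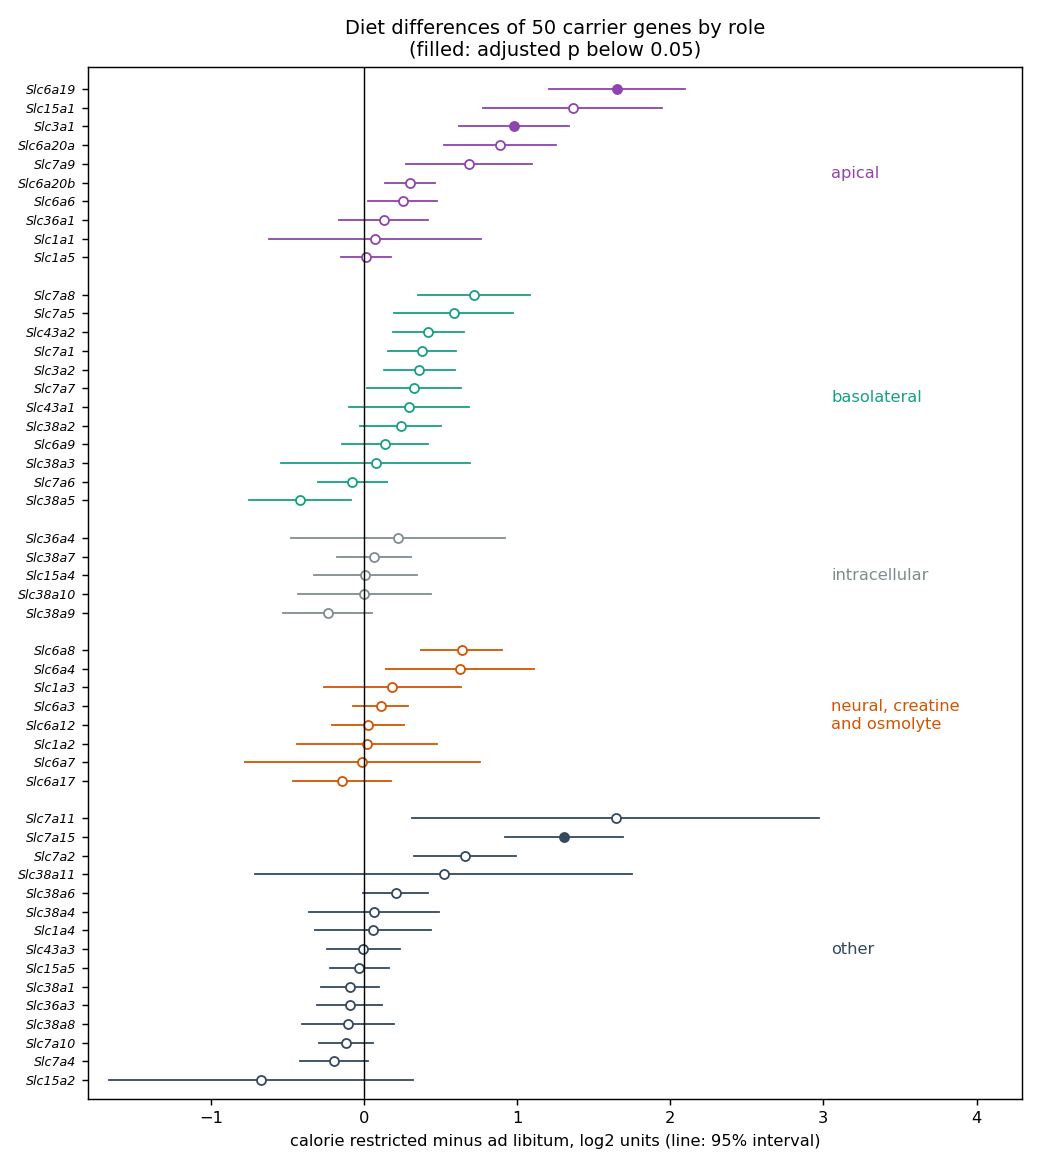
Difference in log2 units (x axis, calorie restricted minus ad libitum) for the 50 tested carrier genes (y axis), grouped by the role of the carrier, with 95% intervals from limma. Filled circles mark the 3 genes with an adjusted p below 0.05, and all 10 apical genes lie to the right of 0, although Slc1a5 was at -0.019 after quantile normalization and Slc1a1 at -0.21 with array weights. The apical genes include Slc6a20b, which was tested only because of its calorie-restricted values.

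Slc6a19, the main apical carrier of neutral amino acids, rose the most among the called members. Its log2 levels were 11.05, 11.15, 11.18 and 10.86 with calorie restriction. With food ad libitum they were 9.87, 8.97 and 9.38. The groups did not overlap, and ad libitum replicate 2 was the lowest of all. The difference was 1.65 ± 0.19 (SE), which is 3.14-fold (limma, adjusted p = 0.0127), and the exact two-sided permutation test over 35 splits gave p = 0.0286, the smallest it can give. Leaving out calorie restricted replicate 1, 2 or 3 gave an adjusted p of 0.0689, 0.0642 and 0.0605, above the threshold, with differences of 1.66, 1.62 and 1.61.

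The heavy chain gene Slc3a1 rose as well. It was at 11.21, 11.14, 10.97 and 10.98 in the calorie-restricted arrays and at 10.37, 9.70 and 10.21 in the ad libitum arrays. The groups were apart, and the spread was wider under ad libitum feeding. The fold difference was 1.97 (0.98 ± 0.16 log2 units, limma, adjusted p = 0.0415). That call stood near the threshold and was lost in each fit that left out 1 array except ad libitum replicate 1 (adjusted p from 0.0577 to 0.150 in the 6 others, and 0.0224 there). It was also lost after quantile normalization (adjusted p = 0.0587) and median centring (0.0504).

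Slc7a9, the light chain that pairs with Slc3a1 and carries cystine, did not pass over all genes. It was at 10.20, 9.69, 9.60 and 9.77 under calorie restriction, against 9.03, 8.91 and 9.45. The groups did not overlap, although calorie restricted replicate 3 and ad libitum replicate 3 were close to each other. Its difference was 0.69 ± 0.18 (limma, adjusted p = 0.209), with a 95% interval from 0.27 to 1.1.

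Slc7a15 encodes another light chain of the Slc7 family and was counted here neither as apical nor as basolateral. Its gene was the member with the second smallest p. Levels were 8.71, 8.61, 8.48 and 8.42 in the calorie-restricted arrays, against 7.18, 6.92 and 7.65 in the ad libitum arrays, whose lowest value stood just above the filter level. All calorie-restricted values lay above all ad libitum values, with a rise of 2.47-fold (1.31 ± 0.17 log2 units, limma, adjusted p = 0.0193). The adjusted p was above the threshold when calorie restricted replicate 1, 2 or 3 was dropped (0.0839, 0.0854 and 0.0738) or ad libitum replicate 2 (0.0577).

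**Figure D2:**
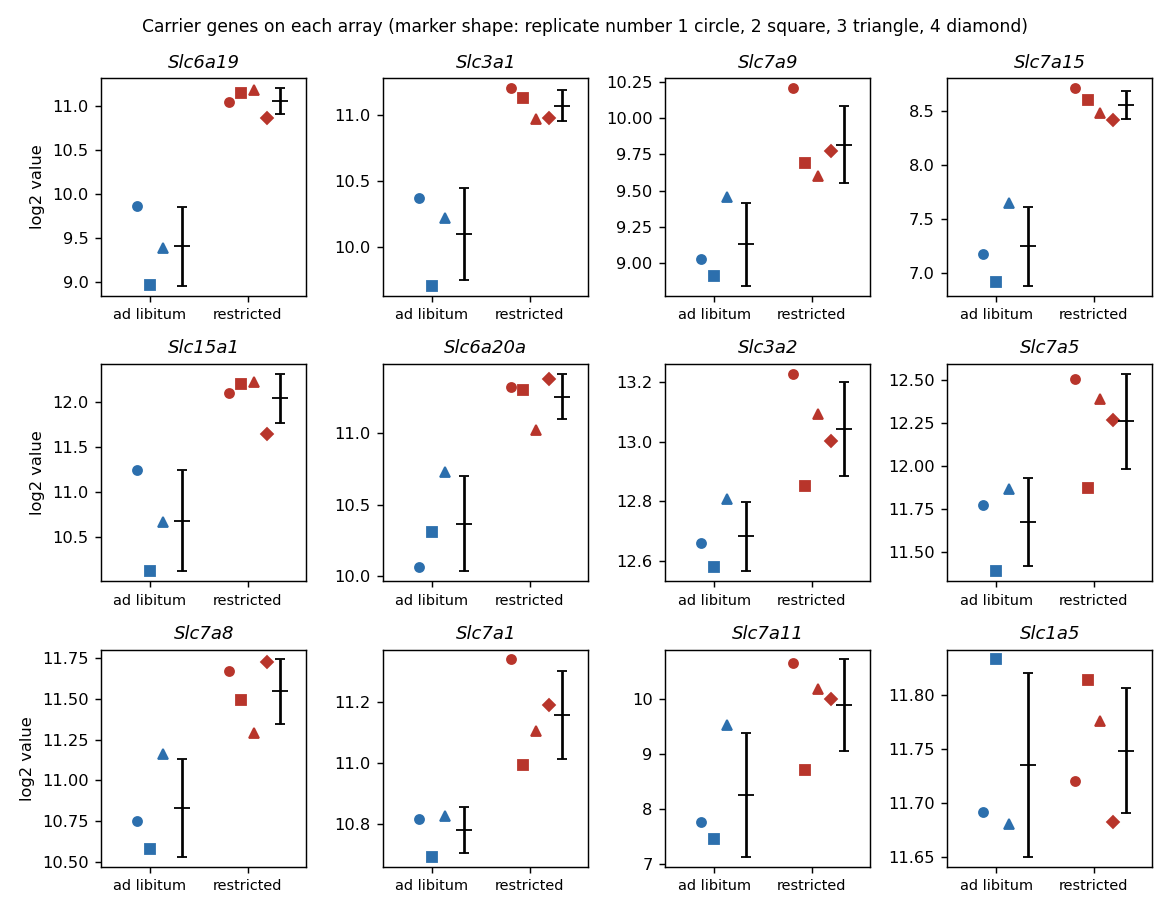
Log2 values (y axis, a separate scale in each panel) of 12 carrier genes on each of the 7 arrays, with the mean and SD of each diet beside the points (n = 3 ad libitum, n = 4 calorie restricted). Slc6a19, Slc3a1, Slc7a15 and Slc15a1 show separate groups, while Slc7a11 and Slc1a5 overlap.

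The peptide carrier gene Slc15a1 had the second largest difference among apical members but a wide spread. It was at 12.11, 12.21, 12.23 and 11.64 in the calorie-restricted arrays and at 11.25, 10.13 and 10.67 in the ad libitum arrays. The gap between the groups, from 11.25 to 11.64, was smaller than the spread within the ad libitum group. The difference was 1.36 ± 0.25, or 2.57-fold (limma, adjusted p = 0.0673). Without ad libitum replicate 1 it was 1.64 and passed (adjusted p = 0.0166). A second peptide carrier, Slc15a2, known from kidney, was near the filter level and overlapped (6.79 ± 0.81 against 7.46 ± 0.55). Its difference of -0.67 ± 0.43 was the lowest of the 50 tested members (limma, adjusted p = 0.729). That difference was -1.03 with array weights, and -0.30 without calorie restricted replicate 1, which was at 5.68. Slc15a2 passed the filter only through its ad libitum arrays.

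Slc6a20a, an apical carrier of proline and other imino acids, was at 11.32, 11.30, 11.02 and 11.38 under calorie restriction. The ad libitum arrays were at 10.07, 10.31 and 10.73. Here ad libitum replicate 1 was the lowest, unlike for Slc6a19, and the groups were apart. Its difference of 0.89 ± 0.16 missed the threshold (limma, adjusted p = 0.0587), and it passed after median centring (adjusted p = 0.0339) and without ad libitum replicate 3 (0.0220). The related copy Slc6a20b was dim in all arrays, at 6.95, 7.07, 6.89 and 7.05 against 6.71, 6.69 and 6.66. All 3 ad libitum values lie below the filter level, so this gene was tested only because of its calorie-restricted values and its difference of 0.30 is a description. Probes of such related copies can also cross-react.

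The remaining apical members differed less. Slc6a6, the taurine carrier, was at 11.42, 11.63, 11.68 and 11.54 against 11.47, 11.30 and 11.18, and the groups overlapped through calorie restricted replicate 1 (0.25 ± 0.10, limma, adjusted p = 0.461). Slc1a5, which exchanges glutamine and other neutral amino acids, was at 11.72, 11.81, 11.78 and 11.68 against 11.69, 11.83 and 11.68. No difference was detectable for it, and the 95% interval was narrow, from -0.15 to 0.18. Slc36a1, a proton-coupled carrier of small amino acids that is also found on lysosomes, had a difference of 0.13 ± 0.13 (adjusted p = 0.843). Slc1a1, the glutamate carrier, varied from 9.92 to 11.01 under calorie restriction and from 9.98 to 10.73 under ad libitum feeding, with an interval from -0.62 to 0.76. Slc6a18 and Slc6a14 were below the filter and were not tested. Of the 10 tested apical members 2 were called higher (0.656% of all genes). Leaving Slc6a20b aside, 5 of 9 had separate groups (7.14% of all genes in that direction) and 9 of 9 had a difference above 0 (54.2%). However, Slc1a5 was at -0.019 after quantile normalization and -0.013 with array weights. Slc1a1 was at -0.21 with array weights and as low as -0.12 when 1 array was left out. The median of the 9 was 0.69, and 0.49 with Slc6a20b.

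None of the 12 tested basolateral carriers was called (limma), where 0.656% of all genes were called higher and 0.00746% lower. At an unadjusted p below 0.05, 6 were higher and 1 was lower (limma, 6.89% and 2.41% of all genes). Their median difference was 0.31, also positive after quantile normalization (0.28) and median centring (0.40). The groups did not overlap for 7 members in the higher direction (7.14% of all genes) and for 1 in the lower (3.03%). Among the 7, Slc43a1 and Slc7a5 separated only barely.

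The heavy chain gene Slc3a2 was at 13.23, 12.85, 13.09 and 13.003 in the calorie-restricted arrays and at 12.66, 12.58 and 12.81 in the ad libitum arrays. The groups were apart by a small step between calorie restricted replicate 2 and ad libitum replicate 3. Its difference was 0.36 ± 0.10 (limma, adjusted p = 0.238).

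Its light chain Slc7a5, which exchanges large neutral amino acids such as leucine, was at 12.51, 11.87, 12.39 and 12.27 against 11.77, 11.39 and 11.87. Calorie restricted replicate 2 and ad libitum replicate 3 met at 11.87, so the groups barely separated. The difference was 0.58 ± 0.17 (adjusted p = 0.267).

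Slc7a8, a light chain for neutral amino acids, had the largest basolateral difference. It was at 11.68, 11.49, 11.29 and 11.73 against 10.75, 10.58 and 11.16, with separate groups. The difference was 0.72 ± 0.16 (limma, adjusted p = 0.124), and the adjusted p was 0.0469 without ad libitum replicate 3. Slc7a7, the light chain that exports cationic amino acids, was at 10.85, 10.53, 10.40 and 10.36 against 10.32, 10.05 and 10.26. Its groups were nearly in contact and the difference was 0.32 ± 0.13 (adjusted p = 0.505). Slc7a6, a light chain with a similar function, was at 9.56 ± 0.12 (n = 4) and 9.64 ± 0.10 (n = 3).

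Slc7a1, a carrier of arginine and lysine that works without a heavy chain, was at 11.34, 10.99, 11.10 and 11.19 in the calorie-restricted arrays. Ad libitum arrays were at 10.82, 10.69 and 10.83. The groups were apart, with little spread among the ad libitum arrays, and the difference was 0.38 ± 0.10 (limma, adjusted p = 0.192). A relative with the same substrates, Slc7a2, which was not counted as basolateral, was at 8.55, 8.58, 8.61 and 8.78 against 7.67, 7.96 and 8.28. That difference was 0.66 ± 0.14 (adjusted p = 0.121), and it passed after median centring (adjusted p = 0.0407) and without ad libitum replicate 3 (0.0465).

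Of the uniporters for neutral amino acids, Slc43a2 was at 10.23, 10.29, 10.13 and 10.00 against 9.81, 9.61 and 9.81. These groups were apart, with a difference of 0.42 ± 0.10 (limma, adjusted p = 0.166). Slc43a1 was at 10.01, 10.13, 10.69 and 9.97 against 9.97, 9.87 and 9.88, where calorie restricted replicate 3 stood above the rest and the other 3 lay near the ad libitum arrays. Its difference was 0.29 ± 0.17, and 0.13 without that array. The Slc43a1 groups counted as separate only by 9.968 in calorie restricted replicate 4 against 9.967 in ad libitum replicate 1. Slc38a2, a sodium-coupled glutamine and alanine carrier, was at 12.35, 12.09, 12.47 and 12.33 against 11.95, 11.99 and 12.28, which overlapped (0.24 ± 0.12, adjusted p = 0.60).

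Of the basolateral members 2 had a difference below 0, Slc38a5 and Slc7a6. Slc7a6 lay near 0 (-0.08 ± 0.10) and was at 0.00997 after median centring. Slc38a5, a glutamine carrier, was at 7.27 ± 0.20 (n = 4) under calorie restriction and 7.68 ± 0.24 (n = 3) under ad libitum feeding, with every calorie-restricted array below every ad libitum array. The difference of -0.42 ± 0.14 did not pass (limma, adjusted p = 0.390), and across the alternative analyses it stayed between -0.50 and -0.28. Slc38a3 and the glycine carrier Slc6a9 had differences of 0.08 ± 0.27 and 0.14 ± 0.12.

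Among the known ATF4 targets, 8 of 9 carriers were tested and 0 were called (limma, 0.656% of all genes were called higher). At an unadjusted p below 0.05, 4 were higher (limma, 6.89% of all genes). All 8 of 8 had a difference above 0 (54.2% of all genes), although Slc1a5 was at -0.019 after quantile normalization and Slc1a4 at -0.039 without calorie restricted replicate 3. Their mean level was 11.84, 11.36, 11.79 and 11.64 under calorie restriction, against 11.20, 11.04 and 11.45. Calorie restricted replicate 2 lay below ad libitum replicate 3, so the list overlapped between the diets.

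Slc7a11, which imports cystine in exchange for glutamate, is described by array because of its spread, a choice made after its values were seen. It was at 10.66, 8.72, 10.19 and 10.01 under calorie restriction and at 7.76, 7.46 and 9.54 under ad libitum feeding. Calorie restricted replicate 2 lay below ad libitum replicate 3. Its difference of 1.64 ± 0.58 was about as large as that of Slc6a19 but did not pass (limma, adjusted p = 0.40), and the 95% interval ran from 0.31 to 2.97. Slc1a4, a carrier of alanine, serine and cysteine, had a difference of 0.06 ± 0.16. Slc7a3 was below the filter.

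Carriers of lysosomes and other internal membranes showed no called difference among 5 tested (limma, 0.656% of all genes were called higher). At an unadjusted p below 0.05 there were 0 (6.89% of all genes higher and 2.41% lower), and the median was 0.01. Slc38a9, the lysosomal arginine sensor of the mTORC1 pathway, was at 9.37 ± 0.16 (n = 4) and 9.61 ± 0.20 (n = 3), a difference of -0.24 ± 0.13. Its second, dimmer cluster had a difference of -0.14. Slc36a4 was at 10.83, 11.30, 11.21 and 10.25 against 11.20, 10.69 and 10.14, with both diets spread over nearly the same range. Slc38a7 (0.07 ± 0.11) and Slc15a4 (0.01 ± 0.15) lay near 0. Slc38a10 had equal means (10.59 ± 0.25 against 10.59 ± 0.36), with calorie restricted replicate 4 below the other 3.

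Carriers of transmitters, creatine and osmolytes were mostly dim, and 8 of the 16 with a cluster were tested. Slc6a8, the creatine carrier, stood out among them at 11.31, 11.19, 11.20 and 11.18 against 10.82, 10.33 and 10.60. The calorie-restricted arrays lay within a narrow band above all ad libitum arrays, with a difference of 0.64 ± 0.12 (limma, adjusted p = 0.0605), and the gene passed without ad libitum replicate 1 (adjusted p = 0.0204). Slc6a4, the serotonin carrier, was at 10.30, 9.83, 9.59 and 10.31 against 9.09, 9.38 and 9.67. Calorie restricted replicate 3 lay below ad libitum replicate 3 and the difference was 0.63 ± 0.21 (adjusted p = 0.367). The other 6 (Slc1a2, Slc1a3, Slc6a3, Slc6a7, Slc6a12 and Slc6a17) had differences from -0.14 to 0.18.

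Of the 15 tested members outside these roles, 1 was called higher, Slc7a15 (limma, 0.656% of all genes). A difference above 0 was seen in 7 of the 15 (54.2% of all genes). Their median was -0.006, and it was 0.065 after quantile normalization and 0.081 after median centring. Slc7a2, Slc7a11, Slc1a4 and Slc15a2, described above, are also among them. Slc38a6 had separate groups at 8.66 ± 0.08 against 8.45 ± 0.10 (0.21 ± 0.09, limma, adjusted p = 0.559). Slc38a1, a glutamine carrier with 2 clusters, had differences of -0.09 in the brighter and 0.01 in the dimmer one. Slc38a11 varied from 7.94 to 9.85 under calorie restriction and from 7.89 to 9.23 under ad libitum feeding, the widest range within 1 diet among the Slc38 genes. Slc7a4 had a difference of -0.20 ± 0.10 and Slc7a10 of -0.12 ± 0.08. Slc15a5, Slc36a3, Slc38a4, Slc38a8 and Slc43a3 lay between -0.10 and 0.06 and were near the filter level.

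The 17 members below the filter had means from 4.09 to 6.78 and differences from -0.23 to 0.07. They included Slc6a14, Slc6a18, the neural carriers Slc6a2, Slc6a5, Slc6a11 and Slc6a15, and the light chains Slc7a12 and Slc7a13. For 3 of the 17 (Slc6a11, Slc6a14 and Slc36a2) every calorie-restricted array lay below every ad libitum array, and for 0 above. Over the tested genes these shares were 3.03% and 7.14%. The lowest tested member by mean was Slc6a20b (6.86), and the highest untested one was Slc6a18 (6.78). No detection p-values were used here, and the background level of these probes is therefore not stated.

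By family, the 2 Slc3 heavy chains were both above the ad libitum range in every calorie-restricted array. Over all genes 7.14% were above that range in every such array, 3.03% were below it and 0.656% were called higher. Of 11 tested Slc7 genes 7 were above it and 1 was called, with a median difference of 0.58, against 0.67 for the Slc3 genes. The Slc6 family had 11 tested and 1 called, and of the 10 without Slc6a20b 3 had separate groups, with a median of 0.20. Among 3 tested Slc43 genes 2 were separate, Slc43a1 only barely. The median of the 3 is the Slc43a1 value of 0.29, which 1 array moved to 0.13. The 5 tested Slc1 genes had 0 with separate groups and a median of 0.06, and the 11 Slc38 genes had 1 separate in each direction and a median of 0.06. Slc15 (4 tested, median -0.01) and Slc36 (3 tested, median 0.13) completed the set. Slc15a2 passed the filter only through its ad libitum arrays, and the median of the 3 other Slc15 genes was 0.01. With Slc15a2 the Slc15 median was 0.04 after quantile normalization and 0.08 after median centring. The other 7 family medians kept their sign under both scalings.

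**Figure D3:**
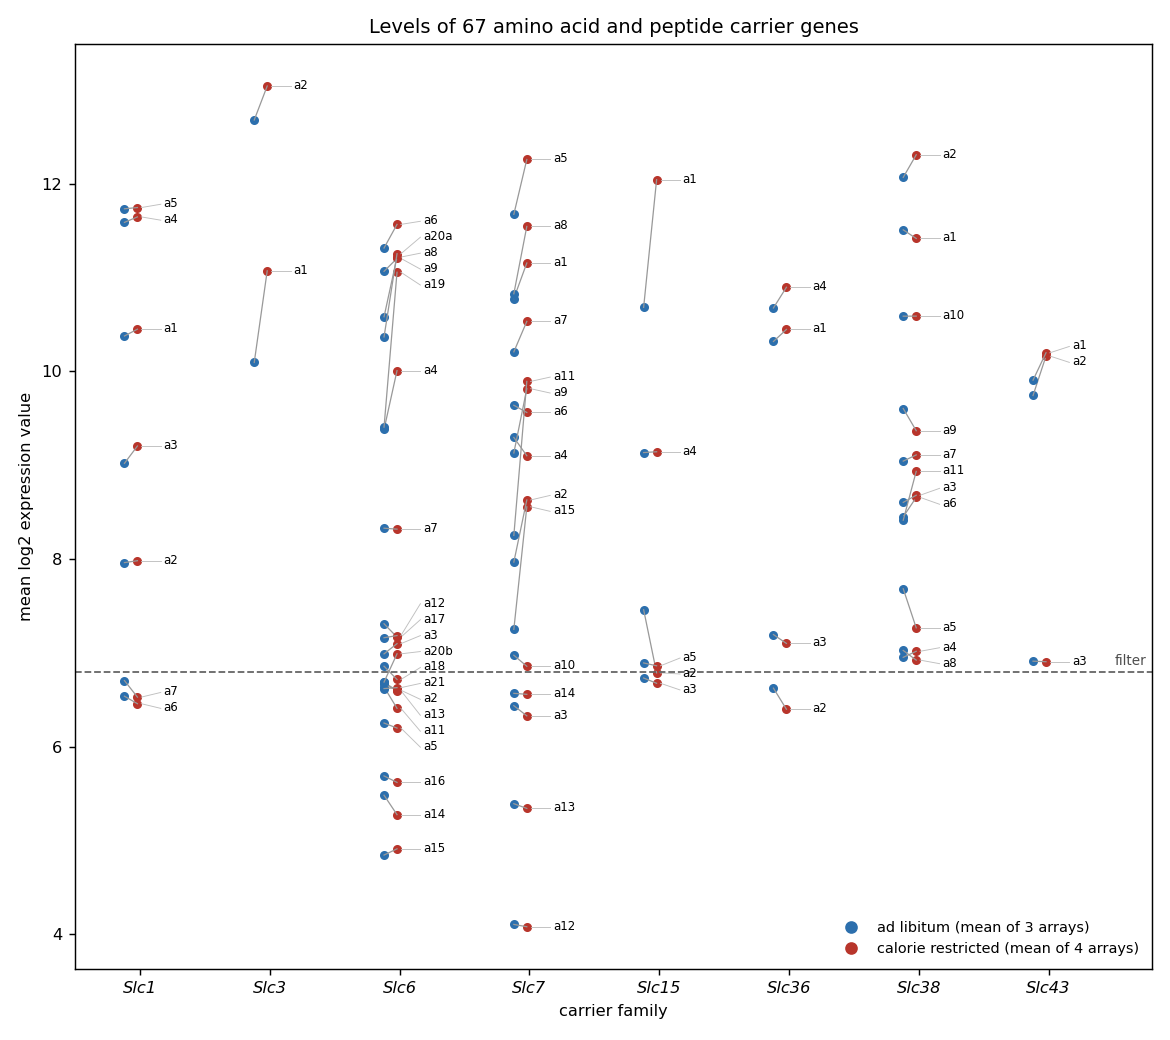
Mean log2 value (y axis) of each of the 67 carrier genes by family (x axis), with ad libitum (blue, 3 arrays) and calorie-restricted (red, 4 arrays) means joined by a line and the filter level of 6.79 dashed. Heights of different genes are not comparable because each has its own probes, and a reader should compare only the joined points, which are far apart for Slc6a19, Slc3a1, Slc7a15, Slc7a11 and Slc15a1.

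Some members follow each other in the RefSeq gene order. Slc6a19 rose while the adjacent Slc6a18 stayed below the filter, with a difference of -0.14. Slc6a20a and Slc6a20b, which follow each other, had differences of 0.89 and 0.30. In the run of Slc38a1, Slc38a2 and Slc38a4 the differences were -0.09, 0.24 and 0.06, and in the run of Slc36a3, Slc36a2 and Slc36a1 they were -0.09, -0.22 and 0.13. None of these contrasts between neighbours was tested.

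Other genes of amino acid and peptide handling gave the surroundings of the members. Of 15 tested peptidases and brush border hydrolases, 3 were called higher (0.656% of all genes), 15 had a difference above 0 (54.2%) and the median was 0.67. The called ones were Mme, a membrane endopeptidase (2.34-fold, 1.22 ± 0.19, limma, adjusted p = 0.0411), Enpep, the glutamyl aminopeptidase (2.12-fold, adjusted p = 0.0439), and the cytosolic dipeptidase gene Cndp2 (1.81-fold, adjusted p = 0.0448). The list shares 4 genes with the enterocyte markers, and the median of the 11 others was 0.86.

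Partners of the carriers and carriers of other families had 1 called gene of 9 (0.656% of all genes were called higher). Slc9a3r1, a scaffold of the brush border, rose by 0.54 ± 0.08 log2 units (11.46 ± 0.09 against 10.92 ± 0.10, limma, adjusted p = 0.0411). A related scaffold gene, Pdzk1, had a difference of 0.98 ± 0.19 (adjusted p = 0.0845). Slc16a10, the basolateral exporter of aromatic amino acids, was at 9.88 ± 0.14 and 9.28 ± 0.35 (adjusted p = 0.224). Cltrn, a partner of Slc6a19 known best from kidney, was below the filter.

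Enzymes of amino acid metabolism had 1 called gene of 25 (0.656% of all genes were called higher) and a median difference of 0.16. Gpt, the alanine aminotransferase, was 1.75-fold higher (8.60 ± 0.09 against 7.79 ± 0.22, limma, adjusted p = 0.0365). The aspartate aminotransferase gene Got1 (0.60 ± 0.11, adjusted p = 0.0635) and the arginase gene Arg2 (0.83 ± 0.19, adjusted p = 0.135) followed without passing.

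The arrays differed in how they stood within a diet. Among the 50 tested members, ad libitum replicate 2 was the lowest ad libitum array for 20, replicate 3 for 18 and replicate 1 for 12. The numbers were 14, 1 and 2 among the 17 members with every calorie-restricted array on top. Those 17 were picked by these same values and include Slc6a20b, so their numbers are a description. Ad libitum replicate 2 had the lowest enterocyte marker mean, 10.38 against 10.94 and 10.98 in the other ad libitum arrays. In the calorie-restricted arrays the enterocyte marker mean was 11.80, 11.84, 11.86 and 11.65. The mean of the 10 apical members was 10.74, 10.66, 10.57 and 10.62 with calorie restriction, against 10.10, 9.85 and 10.08. Within calorie restriction, replicate 3 was the highest for the enterocyte markers and the lowest for the 10 apical members. These 10 include Slc6a20b, tested only because of its calorie-restricted values, so the apical mean is a description. The basolateral mean was 10.73, 10.58, 10.77 and 10.56 against 10.45, 10.28 and 10.49, also without overlap. Without ad libitum replicate 2 the number of called members was 1, Slc6a19 (1.43, limma, adjusted p = 0.0318), and 32 of all genes were called higher. Markers of other cell types were 0 of 8 called for goblet, 0 of 11 for enteroendocrine, 0 of 7 for tuft, 0 of 8 for stem and 0 of 8 for immune and stromal cells (limma), with 3 (1 higher, 2 lower), 2 (both higher), 0, 0 and 0 at an unadjusted p below 0.05. Over all genes 6.89% were higher and 2.41% were lower at that level, and 0.656% were called higher.

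**Figure D4:**
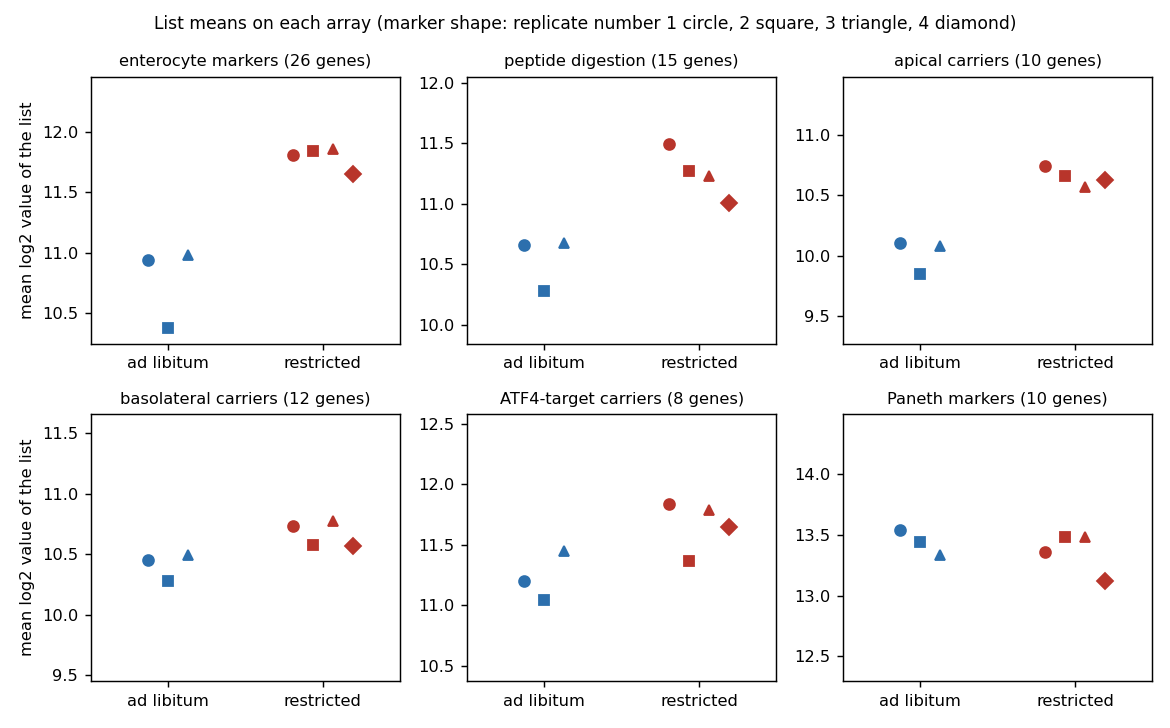
Mean log2 value (y axis, panels span the same range of 2.2 log2 units) of 6 gene lists on each array, by diet. Enterocyte markers, peptide digestion genes and apical carriers are higher in all 4 calorie-restricted arrays, the ATF4-target carriers overlap between the diets, and so do the Paneth markers. The apical carriers include Slc6a20b, which was tested only because of its calorie-restricted values.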

How the data were processed

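Total RNA (10 ug) from 7 samples of sorted mouse Paneth cells was biotin-labelled and read on 7 Affymetrix arrays, per the labels' protocols. The submitters' processing notes name Affymetrix Expression Console, and the authors deposited log2 values per transcript cluster. The sources used here give neither the algorithm nor the normalization, and the log2 scale was inferred from the range (2.97 to 14.7). Array medians ran from 7.24 to 7.44. Correlations between arrays across the 13409 tested genes, which are not independent, ran from 0.949 to 0.993. The number of arrays limits the precision.

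Of 35556 clusters, 21789 had 1 gene symbol in the platform annotation, 1621 had several and 12146 were unnamed here. Genes with a mean under the 40th percentile (6.79) were left out. Diets were compared in limma 3.58.1 under R 4.3.3 (lmFit, eBayes with an intensity trend), with Benjamini-Hochberg adjustment over 13409 genes and a threshold of 0.05. The exact permutation test used all 35 splits of the arrays. The fit was tested on simulated data, and matplotlib 3.10.9 drew the plots.

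Members, roles and lists were chosen with earlier results of these data known. Per-array values are given for called members, members with an unadjusted p below 0.01, the brightest member of each of 8 families, Slc6a19, Slc3a1, Slc7a1 and their partners. Outside the members, the 3 genes with the smallest p of each list of pathway genes are named, and every called one. Alternatives were another normalization (quantile, median centring), filter (none, 60th percentile), model (array weights, no trend, robust, ordinary linear model, replicate block) or cluster rule (mean of clusters), and leaving out each array.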

Additional observations from a re-analysis of the deposited data

Results flagged for a closer look

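Of 50 tested members, 3 had 1 calorie-restricted array that stood apart from the others by Dixon's test at the 95% level, where chance gives about 1 in 20. The measure is the gap to the nearest other array as a share of the group's range. Slc1a2, a glutamate carrier, was at 8.40 in calorie restricted replicate 1 and between 7.82 and 7.87 in the others (share 0.901). Slc6a8, the creatine carrier, was at 11.31 in replicate 1 and between 11.18 and 11.20 in the others (share 0.876), a small distance because the others were so close. Slc38a10 was at 10.22 in replicate 4 and between 10.68 and 10.77 in the others (share 0.842). The ad libitum group, with 3 arrays, is too small for this measure.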

How the results depend on the processing

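The count of 3 higher members (88 higher over all genes) was 2 after quantile normalization (53 over all genes) and with the 60th percentile filter (69). It was 4 after median centring (110 over all genes) and 15 with array weights (963). It was 0 with the ordinary linear model and with the replicate block (0 over all genes in both). When 1 array was left out, the count ran from 0 to 5. It was 0 without calorie restricted replicates 1, 2 or 3 (12, 23 and 12 over all genes) and 2 without replicate 4 (58). Without ad libitum replicate 2 it was 1 (32 over all genes), and without ad libitum replicates 1 or 3 it was 5 (96 and 97). No member was called lower in any of the 17 alternatives, among them array weights, which called 392 of all genes lower (against 1). Same-numbered arrays did not deviate together (correlations -0.126, -0.265 and -0.550), and differently numbered arrays ran from -0.731 to 0.641. With so few arrays per diet, these values cannot decide whether the numbers pair the samples. With the replicate block the adjusted p was 0.110 for Slc6a19, 0.175 for Slc3a1 and 0.150 for Slc7a15. The median difference of 0.13 was 0.25 with the 60th percentile filter, 0.23 with array weights, 0.22 after median centring, 0.023 without a filter and 0.18 with the replicate block, and it ran from 0.13 to 0.19 when 1 array was left out.

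No called member changed direction in any alternative. Some members with differences near 0 did, and the cause was not tested. With array weights the differences were -0.018 for Slc15a4, -0.21 for Slc1a1, -0.18 for Slc1a2, -0.038 for Slc1a3, -0.013 for Slc1a5 and -0.0058 for Slc38a7, and with the replicate block -0.11 for Slc1a1. After median centring they were 0.056 for Slc15a5, 0.081 for Slc43a3, 0.077 for Slc6a7 and 0.00997 for Slc7a6. After quantile normalization they were 0.065 for Slc15a5, -0.019 for Slc1a5, 5.85e-05 for Slc36a3, -0.039 for Slc38a10, 0.089 for Slc43a3 and 0.037 for Slc6a7. When 1 array was left out, the differences ran from -0.10 to 0.083 for Slc15a4, -0.090 to 0.00112 for Slc15a5, -0.12 to 0.25 for Slc1a1, -0.18 to 0.15 for Slc1a2, -0.035 to 0.37 for Slc1a3, -0.039 to 0.22 for Slc1a4, -0.014 to 0.062 for Slc1a5 and -0.046 to 0.48 for Slc36a4. They ran from -0.11 to 0.21 for Slc38a10, -0.13 to 0.24 for Slc38a3, -0.10 to 0.17 for Slc38a4, -0.0017 to 0.15 for Slc38a7, -0.096 to 0.055 for Slc43a3, -0.038 to 0.095 for Slc6a12 and -0.37 to 0.28 for Slc6a7.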
